A study of Taeniopygia guttata with 169 samples.

Results

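The data described here are the bone marrow libraries of female zebra finches that received food with methylmercury (MeHg), set against those of control females. Members were the birds labelled female with a column in the deposited table, less 3 day-90 birds (1 MeHg and 2 control) that the rule for the set leaves out, which gave 71 females, 35 MeHg and 36 control. The other libraries of the table are those of 87 males and of the 3 birds left out. At the ages of 6, 18, 35 and 90 days there were 9, 9, 10 and 7 MeHg birds, against 7, 11, 10 and 8 control birds. The study fed a dose of 1.2 ppm that its text calls sublethal, and asks how it affects the blood-forming system. All birds were Taeniopygia guttata of no stated strain, and no transgene or allele is given for either group. The labels give neither the start of exposure nor the exposure of a bird's parents. Every group held birds of cohorts 1 and 2, 17 and 18 in MeHg and 17 and 19 in controls. What the cohorts are is not stated. The males, 47 MeHg and 40 control, served as birds that the female comparison did not use.

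Methylmercury is an organic form of mercury that crosses membranes and binds thiol and selenol groups of proteins. Bone marrow of birds makes red cells, which keep their nuclei, as well as thrombocytes and white cells, and also holds stromal, bone and fat cells. Whole marrow was used, so for each gene fewer cells of a type and less RNA per cell cannot be told apart.

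Counts per gene were scaled by the size factor of their library and are called normalised counts here. Differences are MeHg minus control on the scale of log2(normalised count + 1), which understates the change of genes with low counts. Libraries of MeHg females held 4962057 to 14549797 assigned reads (median 7594666) and those of control females 4921134 to 13658483 (median 7729460). RIN, a score of RNA integrity, was labelled for 27 MeHg and 27 control birds, with a median of 8.6 in both. Age accounted for 31.8% of the variance over the tested genes. After age, treatment accounted for 1.75%, cohort for 1.95% and plate for 12.3%. The females came from 10 plates, and a factor with more levels takes up more variance by chance. The shares of plate and treatment are therefore not comparable in size. Sex was checked on 5 genes picked with the labels, each with a female median at least 4 times the sum of the male median and 1, and 0 of the 71 birds lay at or below the highest male. That each library is another bird is not said in the labels, and p-values therefore reflect only how much libraries differ. None of the 17292 Ensembl identifiers could be paired with a gene symbol from the files or the reference table. Genes therefore appear as identifiers without roles, the labelled tissue could not be checked on marrow markers, and no list of blood, DNA repair or telomere genes could be read.

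Over the mean of 4 ages, 85 of 13989 genes tested (0.608%) differed between MeHg and control females at an adjusted p under 0.05, by limma with Benjamini-Hochberg adjustment. Of these, 48 were higher (0.343%) and 37 lower (0.264%) in MeHg birds. At an unadjusted p under 0.05 there were 1543 genes (11%). Most of the 85 differences were modest: their median size was 0.62 on the log2 scale, against 0.08 over all genes tested. Differences of at least 2-fold were found for 11 higher and 9 lower genes, and the smallest called difference was 0.18. The higher genes had a median difference of 0.68, and the lower genes of -0.57.

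Few of the 85 genes were abundant. Their mean normalised count had a lower quartile of 39.1 and an upper quartile of 274, against 40 and 497 over all genes tested. Only 1 of them, ENSTGUG00000029531, averaged at least 1000 normalised counts, where 1447 of the 13989 genes tested did. An average under 10 was found for 6 of the 85 and for 1178 of all genes tested, which are similar shares. Birds of one group also varied more in these genes than in most: the residual SD on the log2 scale was 0.57 at the median, against 0.40 over all genes tested. In none of the 85 did the ranges of MeHg and control birds part when taken over all ages. Pairs of 1 MeHg and 1 control bird were then formed without regard to age or cohort. The share of pairs that went the way of the call had a median of 72.4% over the 85 genes. The lowest share was 59.5% and the highest 85.6%. Differences with age thus entered these ranges and shares, which do not measure how far birds of the same age were apart. No value over all genes tested is given for either. The same birds made the calls, so shares in the direction of the call follow in part from the choice of genes.

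The gene with the highest such share also had the lowest p of the comparison, and is named here after its values were seen. ENSTGUG00000003079 ranged over 13.2 to 119.7 normalised counts in MeHg females (median 61.4), against 9.16 to 100.7 in control females (median 30.2). The ranges overlapped, but 33 of 35 MeHg birds lay above the control median. The difference was 0.95 ± 0.15 (SE) on the log2 scale, or 1.93-fold, with an adjusted p of 0.000289 by limma. At days 6, 18, 35 and 90 it was 1.38, 1.04, 0.73 and 0.63, a spread that the test by age did not call (adjusted p = 0.996). Within cohorts the difference was 1.17 ± 0.21 in cohort 1 and 0.73 ± 0.21 in cohort 2. It kept its call in each of the 71 fits that left out 1 bird, with adjusted p between 1.25e-05 and 0.00131, and lost it in 1 of 17 other settings, cohort 2 alone, where the difference was 0.76.

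Both leading higher genes were at or near 0 in some birds and abundant in others. Of the genes higher in MeHg females with a mean of at least 10, ENSTGUG00000005933 had the largest difference. It ranged over 0 to 269.7 normalised counts in MeHg females (median 39.2) and over 0 to 169.6 in control females (median 2.01). Both groups spanned from none to over 100, and they differed in how many birds were high: 20 of 35 MeHg and 6 of 36 control birds had at least 10 normalised counts. The difference was 2.19 ± 0.56, with an adjusted p of 0.0465 by limma. The call was lost in 11 of 16 other settings (adjusted p 0.000124 to 0.501 over all 16) and in 50 of 71 fits without 1 bird. The second gene, ENSTGUG00000004149, ranged over 1.66 to 239.6 in MeHg females (median 15.8) and over 0 to 250.8 in control females (median 7.70). At least 10 normalised counts were found in 23 of 35 MeHg and 11 of 36 control birds. Its difference was 1.68 ± 0.41 (adjusted p = 0.0335 by limma), with 2.87 in cohort 1 and 0.52 in cohort 2. In cohort 2 the medians were 7.7 in MeHg and 7.82 in control birds. The call was lost in 6 of 16 other settings (adjusted p 0.000205 to 0.838 over all 16) and in 10 of 71 fits without 1 bird. The test of the difference between cohorts did not call this gene (adjusted p = 0.281).

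Among genes lower in MeHg females, ENSTGUG00000007021 had the largest difference. Its normalised count ranged over 0 to 62.6 in MeHg birds (median 4.26), against 0 to 312.7 in control birds (median 26.2). All 9 MeHg birds of day 6 and all 9 of day 18 lay below the control median of their age, as did 6 of 10 at day 35 and 6 of 7 at day 90. The differences at days 6 and 18 did not pass on their own (adjusted p = 0.424 and 0.339 by limma). At day 35 the difference was -0.78, and the test by age did not call this gene (adjusted p = 0.996 by limma). Over all ages, 9 of 35 MeHg and 26 of 36 control birds had at least 10 normalised counts. The difference was -2.24 ± 0.45 (adjusted p = 0.00756 by limma), and over 16 other settings it lay between -2.93 and -1.60. The call was lost in 1 of these, cohort 2 alone, where the difference was -1.60 (adjusted p = 0.574), and in 0 of 71 fits without 1 bird. The second gene, ENSTGUG00000006464, ranged over 5.93 to 927.9 in MeHg birds (median 39), against 11.5 to 1720.9 in control birds (median 230.2). Birds of both groups lay at both ends of this range, yet 30 of 35 MeHg birds were below the control median. Its difference was -1.77 ± 0.39 (adjusted p = 0.0146 by limma), with -2.42 in cohort 1 and -1.13 in cohort 2. The call was lost in 3 of 17 other settings and in 0 of 71 fits without 1 bird. Over the 17 settings the difference lay between -2.24 and -0.64. At single ages the difference was furthest from 0 at day 90, with -3.19, which on its own did not pass (adjusted p = 0.699 by limma). At that age 6 of 7 MeHg birds had fewer counts than the control median of 427.2.

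**Figure D1:**
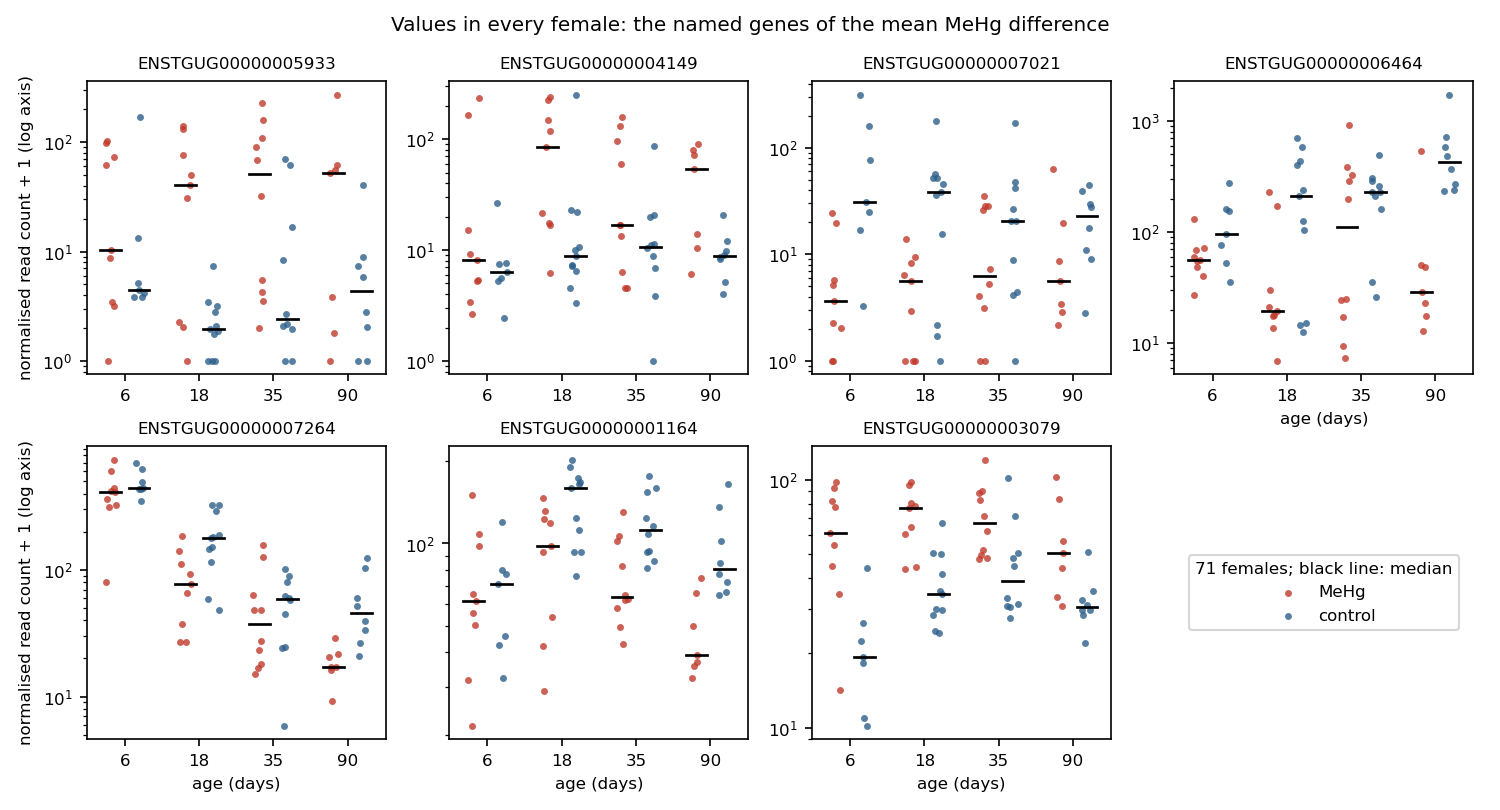
Normalised read count plus 1 on a log axis in each of the 71 females, by age in days, with MeHg birds left of control birds and a black line at the median of each group. The panels show the 7 genes described for the mean difference. For ENSTGUG00000005933 and ENSTGUG00000004149 points lie near 1 and above 100 in both groups, while for ENSTGUG00000003079 the MeHg median (61.4 over all ages) sits above the control median (30.2) with overlapping points.

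The 3 left-out day-90 females followed the calls in some of these genes and not in others. For ENSTGUG00000003079 the left-out MeHg bird had 35.9 normalised counts, and the left-out control birds had 15.4 and 16. For ENSTGUG00000005933 the left-out MeHg bird had 1.38, below the left-out control birds with 1.54 and 2.91. For ENSTGUG00000007264, called lower, the left-out MeHg bird had 51.1, between the left-out control birds with 20 and 85.9. With all 3 birds in the fit, 68 genes were called, 60 of them among the 85.

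When in life the difference was present was asked by a contrast at each age, taken from the fit of all females. The spread between birds and the cohort and plate terms were thus shared over the ages. At single ages few genes passed. Of the genes tested, 0%, 0.0643%, 0% and 0% were called at days 6, 18, 35 and 90. By limma 0 genes were called at day 6, where 650 had an unadjusted p under 0.05, edgeR called 0, DESeq2 20 and voom 18. At day 35 limma and edgeR called 0 (1227 by limma at an unadjusted p under 0.05), DESeq2 12 and voom 14. At day 90 limma, edgeR and voom called 0 (582 unadjusted by limma) and DESeq2 4. Between 7 and 11 birds a group entered each of these contrasts. A variation of the MeHg difference with age was called for 0 genes by limma (0%), with a lowest adjusted p of 0.053 and 740 genes (5.29%) at an unadjusted p under 0.05, against 2 by edgeR, 1 by DESeq2 and 4 by voom.

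The 85 genes of the mean difference kept similar sizes over the ages. The median of their differences in the direction of the mean was 0.58, 0.58, 0.59 and 0.55 at days 6, 18, 35 and 90. For 81 of the 85 (95.3%) the sign was that of the mean at all 4 ages, against 16.8% of all genes tested. This is a description, since the mean that chose the 85 is made of the 4 ages. An unadjusted p under 0.05 was reached by 42, 55, 43 and 38 of the 85 at these ages, where 4.65%, 8.65%, 8.77% and 4.16% of all genes tested did. The 4 genes with another sign at 1 age, named after their values were seen, were ENSTGUG00000020222 (-0.12 at day 90), ENSTGUG00000003978 (-0.16 at day 35), ENSTGUG00000023904 (-0.01 at day 90) and ENSTGUG00000001164 (0.18 at day 6).

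**Figure D2:**
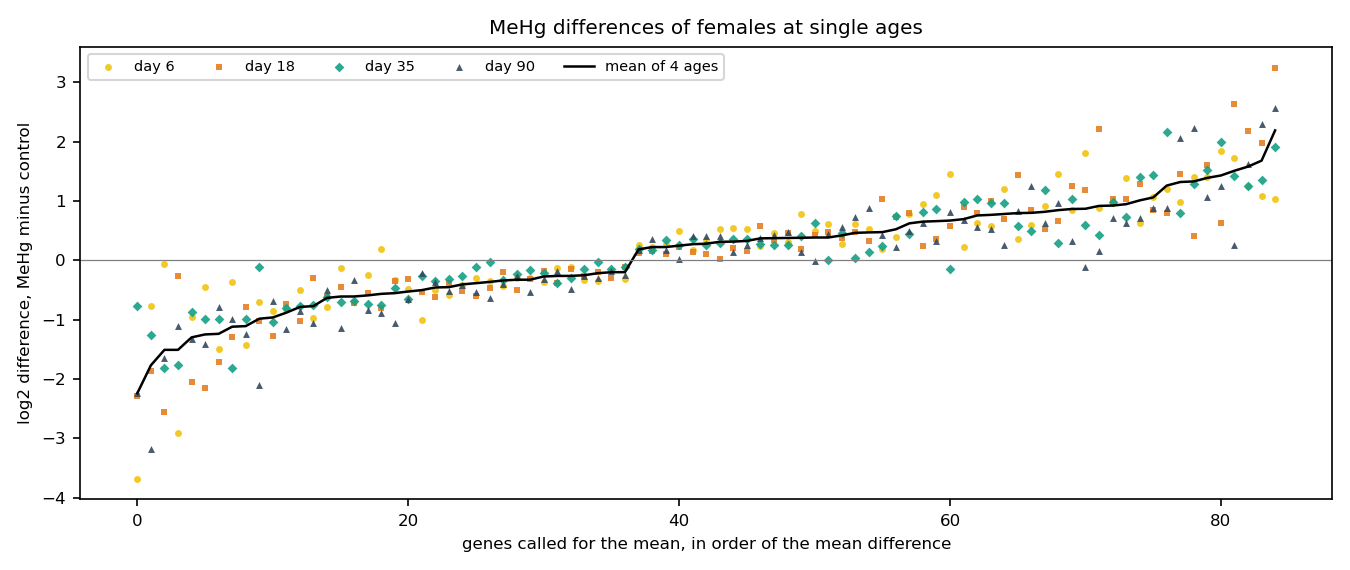
Log2 difference (MeHg minus control) in females at day 6, 18, 35 and 90 for the 85 genes called for the mean, ordered by the mean difference, which is the black line. Points of all ages follow the line, and 4 genes have an age on the other side of 0.

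Day 18 was the age at which the test made calls: 9 genes, all higher in MeHg females. They were large differences, between 1.04 and 4.29 on the log2 scale. The largest was ENSTGUG00000021692, an abundant transcript that averaged 5760 normalised counts over the 71 females. At day 18 it held 2863.7 to 82268.2 normalised counts in the 9 MeHg birds (median 14800), against 31.6 to 56226.7 in the 11 control birds (median 523.7). All 9 MeHg birds lay above the control median, and the highest control bird lay among them. The difference was 4.29 ± 0.94 with an adjusted p of 0.0482 by limma. The second gene, ENSTGUG00000021898, held 1313.9 to 7699.1 in MeHg birds (median 2315.4), against 63 to 4636.5 in control birds (median 356). Again all 9 MeHg birds lay above the control median, and the ranges overlapped. Its difference was 2.91 ± 0.63 (adjusted p = 0.0482 by limma).

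The day-18 calls were fragile. At day 35 the differences of the leading pair were -0.21 and -0.31, although the test by age did not call either gene (adjusted p = 0.791 for both). Of the 9, 3 were among the 85: ENSTGUG00000023511, ENSTGUG00000024464 and ENSTGUG00000001518, named after their values were seen. Of all genes tested 0.608% were among the 85. This overlap is a description, since day 18 is part of the mean. ENSTGUG00000021692 lost its call in 5 of 14 other settings and in 53 of 71 fits without 1 bird, and ENSTGUG00000021898 in 7 of 14 and in 50 of 71. By edgeR on recovered reads their day-18 differences were 1.77 (adjusted p = 0.68) and 2.05 (adjusted p = 0.343). In males fitted alone, all 9 genes had a positive difference at day 18, where 58.6% of all genes tested shared the sign of females, and 2 had an unadjusted p under 0.05, against 8.84% of all genes tested. Males gave 0 calls by limma at that age (0%). The values of ENSTGUG00000021692 in day-18 males had medians of 4239.1 in MeHg and 3094.7 in control birds, with a difference of 0.14 ± 0.85.

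Whether the female differences also occurred in males was read from birds that took no part in the choice of genes. Fitted alone on the same 13989 genes, males gave 240 calls (1.72%). Of the 85 genes called in females, 83 had the same sign in males (97.6%), against 64.7% of all genes tested. These were 46 of the 48 higher and 37 of the 37 lower genes. In males 25 of the 85 passed the threshold in the same direction, 16 higher and 9 lower, which is 29.4% of the female calls and 10.4% of the male calls. The number called in both sexes in 1 direction depended on the setting: it was 5 with the title code as a random effect, 5 in libraries with a RIN and 4 with RIN as a term, 11 with extraction batch in place of plate, 7 in cohort 1 alone and 0 in cohort 2 alone, against 73 by DESeq2 and 93 by voom. An unadjusted p under 0.05 in males was reached by 55 of the 85 (64.7%), against 13.7% of all genes tested. The 2 genes of opposite sign, ENSTGUG00000021551 and ENSTGUG00000029637, named after their values were seen, both had a male difference of -0.04.

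The male differences of the 85 genes were smaller at the median, 0.36 in the female direction, against 0.62 in the females that chose them. The 85 were chosen on the female values, so these medians were not tested against each other. The direct test of the difference between the sexes, in a fit of both sexes together, called 0 of 13989 genes by limma (0%), with 504 (3.6%) at an unadjusted p under 0.05, and edgeR, DESeq2 and voom also called 0. Of the 85, 16 had an unadjusted p under 0.05 in this test, where 3.6% of all genes tested did. In all 16 the female difference lay further from 0 than the male one, and none of them passed adjustment. Both the count and its direction are shaped by the choice of the 85 on female values, so they do not show a stronger response in females. A test that misses the threshold does not show that the sexes respond alike: for ENSTGUG00000007021 the female minus male difference was -0.76 with a 95% interval from -2.08 to 0.56, and for ENSTGUG00000006464 it was -0.89, from -2.01 to 0.23.

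The leading higher genes of females were also called in males. In males, ENSTGUG00000005933 ranged over 0 to 178.8 normalised counts in MeHg birds (median 8.51), against 0 to 671.2 in control birds (median 1.27). The groups overlapped over almost the whole range, and the highest male was a control bird. The male difference was 2.45 ± 0.53 (adjusted p = 0.00463 by limma), and the male call was lost in 6 of 16 other settings (adjusted p 0.000301 to 0.95 over all 16). ENSTGUG00000004149 ranged over 0 to 366.4 in MeHg males (median 16.8), against 0 to 170.7 in control males (median 6.72), a difference of 2.37 ± 0.41 (adjusted p = 0.000294 by limma), lost as a call in 2 of 16 other settings. Of the leading lower genes neither passed in males. ENSTGUG00000007021 had medians of 8.63 in MeHg and 33 in control males (difference -1.32, adjusted p = 0.148 by limma), and ENSTGUG00000006464 of 153.7 in MeHg and 179.4 in control males (difference -0.86, adjusted p = 0.351 by limma).

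Among genes lower in both sexes, those with the largest difference, taken as the smaller of the female and male one, were ENSTGUG00000007264 and ENSTGUG00000001164. The level of ENSTGUG00000007264 differed widely between ages. Its medians in MeHg females were 414.6, 76.2, 36.5 and 16.3 normalised counts at day 6, 18, 35 and 90, against 438.3, 178.9, 57.9 and 44.6 in control females. At day 90 the highest MeHg bird held 27.8 and the lowest control bird 19.9, so that the ranges overlapped at their edges, and all 7 MeHg birds lay below the control median. The day-90 difference of -2.1 did not pass on its own (adjusted p = 0.693 by limma). A variation of the difference with age was not called (adjusted p = 0.906 by limma). Its mean difference was -0.99 ± 0.21 in females (adjusted p = 0.0145 by limma) and -0.70 ± 0.20 in males (adjusted p = 0.0464 by limma). The male call was lost in 9 of 17 other settings and the female call in 4 of 17.

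ENSTGUG00000001164 ranged over 20.6 to 149.1 normalised counts in MeHg females (median 61.9), against 31.2 to 201.4 in control females (median 97). At day 90 all 7 MeHg birds, and at day 18 all 9, lay below the control median of their age. At day 6 the groups lay level, with medians of 60.6 in MeHg and 69.9 in control birds. The differences at days 18 and 90 did not pass on their own (adjusted p = 0.217 and 0.996 by limma). A variation with age was not called for this gene (adjusted p = 0.906 by limma). The mean difference was -0.57 ± 0.13 in females (adjusted p = 0.0268 by limma) and -0.82 ± 0.14 in males (adjusted p = 0.000294 by limma). The female call was lost in 5 of 17 other settings (adjusted p 0.00778 to 0.622 over all 17) and in 1 of 71 fits without 1 bird, and the male call in 2 of 17 settings. ENSTGUG00000003079, the gene of lowest p in females, had medians of 59.5 in MeHg males and 32.5 in control males, close to those of females, and a male difference of 0.89 ± 0.13 (adjusted p = 1.96e-05 by limma). The female minus male difference of this gene was 0.04, with a 95% interval from -0.34 to 0.42.

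**Figure D3:**
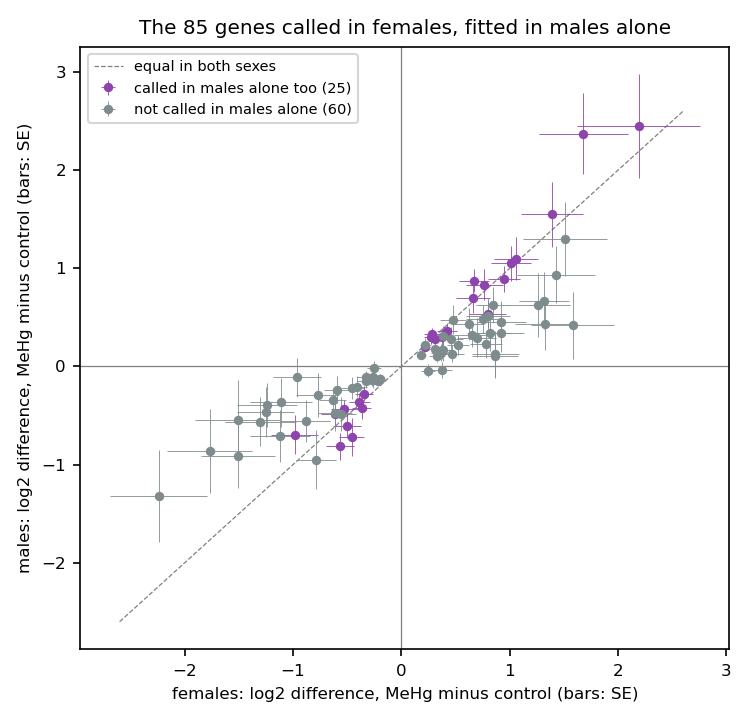
Log2 difference (MeHg minus control, mean of 4 ages) of the 85 genes called in females, in females on the x axis and in males fitted alone on the y axis, with bars of 1 SE. The 25 genes called in males too are purple, and 83 of 85 points lie in the quadrants of equal sign; 60 genes were not called in males.

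Males are separate birds but not in every respect separate from the females. Titles of the libraries carry a code that belongs to 1 treatment, and whose meaning the labels do not state. The 71 females fell into 34 codes counted within cohort, of which 24 also held a male. Within their cohort, 67 of the 87 males shared a code with a female. The 20 males that shared none within their cohort were 6 MeHg birds, all of cohort 2, and 14 control birds. Most of them, among MeHg as among control birds, carried a code that females of the other cohort also carried. This set is therefore not free of shared codes. In these 20 males, 65 of the 85 genes had the sign of females (76.5%), against 56.6% of all genes tested. In that small set 0 genes were called by limma at the adjusted threshold, with 737 at an unadjusted p under 0.05. Its fit held cohort but no plate term.

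Birds of 1 code were also more alike than others in some genes. The correlation of residuals between females of the same code and cohort was 0.097 over all genes tested, and its median was 0.19 over the 85 genes, against 0.10 over all genes tested. A fit that let females of the same code and cohort be correlated called 27 genes, all of them among the 85, and all 85 kept their direction. It gave every gene the shared value of 0.097, although 21 of the 85 had a correlation over 0.3. Birds with the same code in different cohorts counted as unrelated: females had 28 title codes, but 34 when counted within cohort. Likeness within codes beyond the shared value, or across cohorts, was not accounted for in this fit. ENSTGUG00000004149 had a correlation of 0.59. Among the 10 MeHg codes with at least 2 females, all birds had 10 or more normalised counts of this gene in 6 codes, no bird had in 2, and 2 codes were mixed; among the 11 control codes the numbers were 1, 5 and 5. For ENSTGUG00000003079 the correlation was 0.01, and for ENSTGUG00000007021 it was -0.13. The part of the code in the differences of single genes was not tested beyond this fit.

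The cohorts were compared to see whether the difference was alike in both. Within the fit with a cohort term for MeHg, 0.722% of the genes tested were called in cohort 1 and 0.05% in cohort 2, 38 and 4 of the 85 among them. All 85 had the same sign in both cohorts, where 50.6% of all genes tested did, again as a description, since both cohorts entered the choice. Their median size was 0.65 in cohort 1 and 0.44 in cohort 2. In the test of the difference between cohorts, 19 of the 85 (22.4%) had an unadjusted p under 0.05, against 9.06% of all genes tested. Cohort 1 fitted alone gave 45 calls, 19 of them among the 85, and cohort 2 alone gave 0 by limma, with 1099 at an unadjusted p under 0.05; no other tool was run on it. The cohorts held 34 and 37 females.

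A direct test found 12 genes whose MeHg difference varied with cohort (0.0858%). In 8 the cohort 1 difference was the higher and in 4 the cohort 2 difference. In each of the 12 the fitted differences had opposite signs in the cohorts, where 50.6% of all genes tested had the same sign in both. None of them was among the 85, where 0.608% of all genes tested were. Both are descriptions, since the 12 were chosen for a wide gap, which favours opposite signs and a small mean. ENSTGUG00000026054 showed the widest gap. In cohort 1 it ranged over 2.36 to 379 normalised counts in MeHg birds (median 31.5), against 0 to 36.1 in control birds (median 1.41). In cohort 2 it ranged over 0 to 77.1 in MeHg birds (median 8.43), against 0 to 838.4 in control birds (median 8.91). In cohort 1 all 17 MeHg birds lay above the control median, and in cohort 2, 9 of 18 did. The differences were 3.71 in cohort 1 and -0.97 in cohort 2, which differ by 4.67 ± 0.88 (adjusted p = 0.00517 by limma). On its own the cohort 2 difference did not pass (adjusted p = 0.675 by limma), so a reversed difference is not shown.

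The other genes named for this test moved by less, and from ranges that overlapped. ENSTGUG00000001491 had cohort 1 medians of 85.2 in MeHg and 48.3 in control birds, and cohort 2 medians of 50.5 in MeHg and 90.8 in control birds, so the order of the groups was turned. The gap was 1.53 ± 0.26 (adjusted p = 0.00264 by limma), and the correlation within codes was 0.68 for this gene. Its cohort 2 difference did not pass on its own (adjusted p = 0.121 by limma). ENSTGUG00000027294 went the other way, with cohort 1 medians of 70.8 in MeHg and 87.8 in control birds and cohort 2 medians of 83.6 in MeHg and 43.2 in control birds (gap -1.47 ± 0.31, adjusted p = 0.0198 by limma). ENSTGUG00000024467 had cohort 1 medians of 43.7 in MeHg and 40.1 in control birds and cohort 2 medians of 58.8 in MeHg and 29.6 in control birds (gap -1.43 ± 0.30, adjusted p = 0.0198 by limma). Its MeHg median was thus the higher one in both cohorts, while in cohort 1 its MeHg mean was the lower one, with 44.6 in MeHg and 52.4 in control birds, and the fitted cohort 1 difference of -0.36 did not pass (adjusted p = 0.558 by limma). In libraries with a RIN the test by cohort called 0 genes by limma, with 920 at an unadjusted p under 0.05.

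Males gave a view of these 12 genes from other birds, of which many share a code with a female. All 12 gaps had the same sign in males as in females, where 60.7% of all genes tested did. In males, 3 of the 12 passed the threshold and 7 had an unadjusted p under 0.05, against 0.336% and 9.44% of all genes tested. The 3 were ENSTGUG00000002789, ENSTGUG00000023659 and ENSTGUG00000029089, named after their values were seen. For ENSTGUG00000026054 the male gap was 1.62 ± 1.04 and did not pass (adjusted p = 0.687 by limma).

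**Figure D4:**
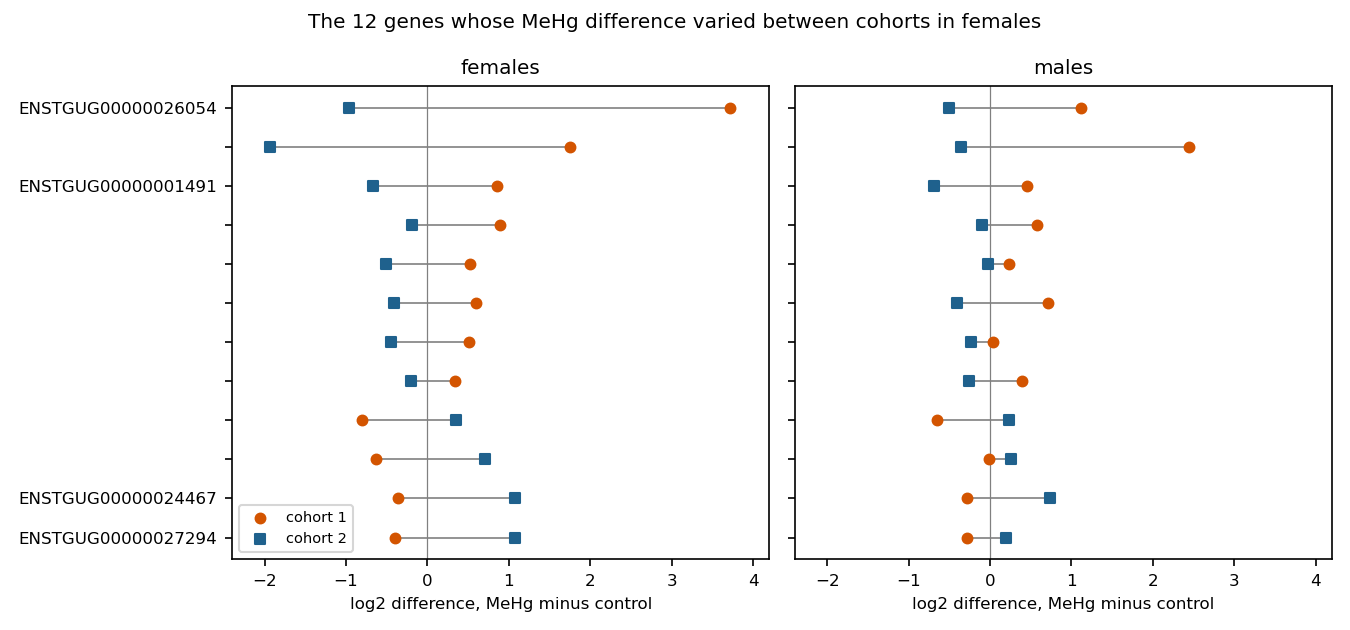
Log2 difference (MeHg minus control) in cohort 1 (circles) and cohort 2 (squares) for the 12 genes whose difference varied with cohort in females, with females on the left and males on the right; the 4 genes described in the text carry their identifiers. In every row the cohorts lie in the same order in both sexes, with gaps from -1.47 to 4.67 in females.

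The number of genes called for the mean difference moved with the analysis, while their direction did not. Over 17 other settings the count lay between 0 and 257, and all 85 genes kept their sign in each (73 of 73 where a stricter filter left that many). The kept sign is a description, since these settings rest on the females that chose the 85, in full or in part. Tests on recovered reads called 98 genes by edgeR, 76 of them among the 85, and 189 by DESeq2, 81 of them among the 85. The count was 44 with extraction batch in place of plate, 46 with neither cohort nor plate, and 68 in the libraries with a RIN. Of these, 39, 43 and 42 were among the 85. Leaving out 1 bird gave calls for 0.372% to 0.743% of the genes tested, and 2 control birds moved the count by over 1.5 times: without control bird 1 of day 35 it was 52, and without control bird 5 of day 6 it was 54.

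**Figure D5:**
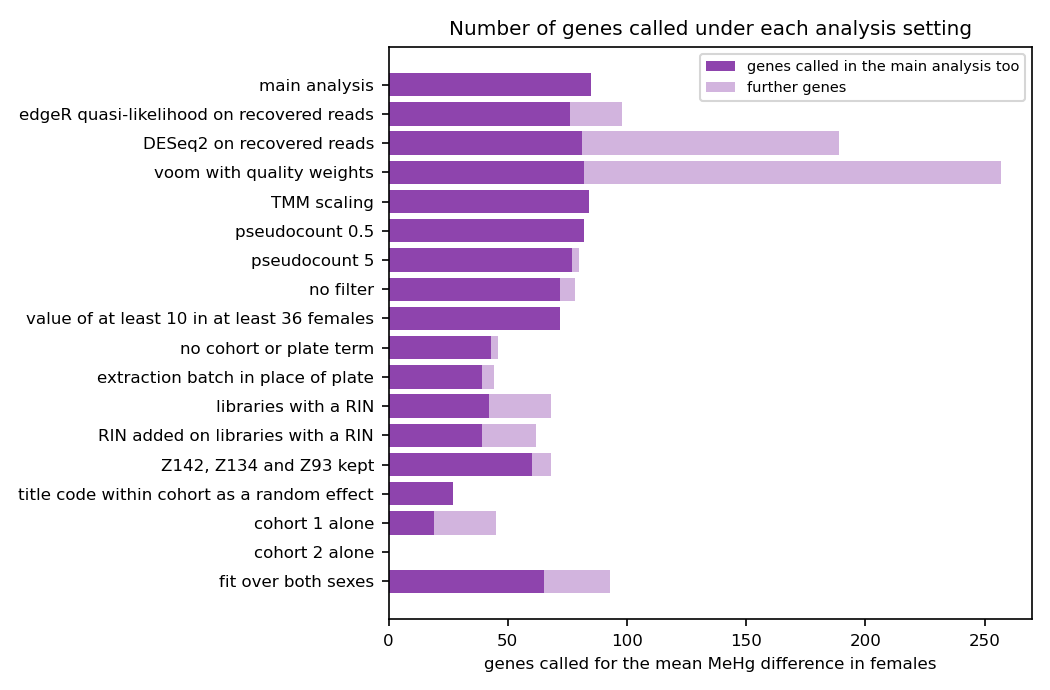
Number of genes called for the mean MeHg difference in females (x axis) under each analysis setting (rows), with genes that the main analysis also called in dark purple and further genes in light purple. The main analysis called 85, voom with quality weights 257 and cohort 2 alone 0.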

How the data were processed

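RNA of whole bone marrow was sequenced after oligo(dT) selection, as the labels' protocols describe. According to the submitters' processing notes, tools included Subread, featureCounts, R 4.0.2 and DESeq2 1.30.1. Which genome build and annotation were used, and whether counting followed strand, is not given in the sources used here. Overlapping or near-identical genes may therefore share reads. What the authors deposited is a normalised signal per gene, equal to the read count over a size factor of the library (0.574 to 1.75). The values bear this out: taking the lowest value above 0 as 1 read, 100% were whole within a relative tolerance of 1e-06.

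Tested genes had at least 10 normalised counts in 7 or more of the 71 females. The test was limma 3.58.1 (R 4.3.3) with trend and robust variances on log2(value + 1), with 8 treatment-by-age groups, cohort and plate, and Benjamini-Hochberg adjustment over all genes tested. An interaction of MeHg with cohort was added for that test, and sexes were compared over 16 groups. A plate with a sole female library adds nothing to the contrasts. Intervals are of 95%. The fits were tested on simulated data with independent birds. Those data held no code, cohort or plate effects, so the test does not speak to them.

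The members, lists and rules were chosen with earlier results of these data known. Named genes are up to 2 each way per comparison, by size of difference among those called with a mean of at least 10, and by the smaller of the 2 differences for genes called in both sexes. Gene lists could not be run, since the reference table matched 0 identifiers, and no sequences are shown. Alternatives covered edgeR 4.0.16 and DESeq2 1.42.0 on recovered reads, voom, TMM, pseudocounts of 0.5 and 5, filters, covariates, RIN, title code, cohorts and birds left out. Males that shared no code with a female of their cohort were added later.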

Additional observations from a re-analysis of the deposited data

Results flagged for a closer look

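Within the groups of 7 to 10 females, 91 sets of values of the named genes were tested for a bird that stood apart from the rest of its group, and 8 had one. The group of 11 control females of day 18 was not searched. Chance alone flags about 5% of such sets. Values below are normalised counts, and the gap was measured on the log2 scale.

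For ENSTGUG00000005933, control bird 5 of day 6 held 169.6, in a group whose median was 3.44. For ENSTGUG00000006464, MeHg bird 6 of day 90 held 535.8, with a group median of 27.8. For ENSTGUG00000021692, MeHg bird 6 of day 35 held 21750, with a group median of 966. For ENSTGUG00000001491, MeHg bird 4 of day 18 was low at 34.7, with a group median of 87.8. For ENSTGUG00000027294, MeHg bird 8 of day 18 was high at 220.4 (median 71.3), and for ENSTGUG00000024467, control bird 10 of day 90 was high at 123.1 (median 38.9). ENSTGUG00000007264 had a low MeHg bird of day 6 (bird 9, 78.8 against a median of 415) and a low control bird of day 35 (bird 3, 4.88 against a median of 57.9).

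The 4 genes named for the test by cohort were flagged because the MeHg difference of females differed between cohorts. On the log2 scale the cohort 1 difference minus the cohort 2 difference was 4.67 for ENSTGUG00000026054, 1.53 for ENSTGUG00000001491, -1.47 for ENSTGUG00000027294 and -1.43 for ENSTGUG00000024467. Cohort was labelled, but what else differed between the cohorts is not stated, and its part in these gaps was not tested.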

How the results depend on the processing

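The share of tested genes that was called depended on the test and the covariates, and the causes were not tested. Shares below are percent of genes tested, with the main one in brackets. For the mean difference in females (0.608), DESeq2 gave 1.35, voom with quality weights 1.84, no cohort or plate term 0.329, extraction batch in place of plate 0.315, the title code as a random effect 0.193, cohort 1 alone 0.322 and cohort 2 alone 0. Other settings stayed within 1.5 times. For day 6 (0), DESeq2 gave 0.143, voom 0.129, and a pseudocount of 5 and no cohort or plate term 0.00715 each. For day 18 (0.0643), edgeR gave 0.0214, DESeq2 0.136, voom 0.958, no filter 0.0116, no cohort or plate term 0.193, extraction batch 0.0286, libraries with a RIN 0.107, RIN as a term 0.114 and the 3 birds kept 0.0143. In single cohorts limma called 0 genes at day 18 in cohort 1 (1085 at an unadjusted p under 0.05) and 1 in cohort 2 (898), and at day 6 it called 0 in cohort 1 (1110) and 1 in cohort 2 (480). For day 35 (0), DESeq2 gave 0.0858, voom 0.1, and libraries with a RIN or RIN as a term 0.0143 each. For day 90 (0), DESeq2 gave 0.0286. For MeHg by age (0), edgeR gave 0.0143, voom 0.0286, and DESeq2, a pseudocount of 5, the 3 birds kept and the title code 0.00715 each. For MeHg by cohort (0.0858), DESeq2 gave 0.579, voom 0.35, extraction batch and the title code 0.05 each, and libraries with a RIN or RIN as a term 0 each. For males (1.72), DESeq2 gave 2.85, voom 4.98, libraries with a RIN 0.407, RIN as a term 0.465, the title code 0.6, cohort 1 alone 0.479, cohort 2 alone 0.379 and males of codes with no female in their cohort 0.

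Leaving out 1 female at a time gave 0.372 to 0.743 for the mean, 0 to 0.0214 for day 6, 0 to 0.508 for day 18, 0 to 0.0214 for day 35, 0 to 0 for day 90, 0 to 0.0286 for MeHg by age and 0.0572 to 0.129 for MeHg by cohort. The highest day-18 share came without control bird 10 of day 18, and 0 came without, among others, control bird 5 of day 18. None of the 13 genes chosen by the naming rule or by lowest p changed sign under the settings run for its comparison, which mostly reuse the birds that chose it. Single cohorts and the males of codes with no female in their cohort hold fewer birds than the main fits. Under TMM scaling the median difference of all genes was 0.0025 on the log2 scale. No paired analysis was possible because the labels pair no MeHg bird with a control bird.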
